A study of Homo sapiens with 39 samples.

Results

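The genes described here are 50 genes of G2, mitosis and cytokinesis, chosen by name, out of 57773 Ensembl gene identifiers in the deposited count table. RNA was sequenced in 39 libraries of JJN3, an established human multiple myeloma (plasma cell cancer) line grown in RPMI with fetal calf serum. The libraries form 13 groups of 3: untreated cells at the start (T0), and cells given DMSO, GSK-J4 or ZnSO4 and taken 1, 3, 6 or 24 h later. GSK-J4 is an inhibitor of the KDM6 histone demethylases, which remove methyl groups from lysine 27 of histone H3, ZnSO4 is a soluble zinc salt and DMSO is the solvent control. No dose appears in the labels read here, and the treatment protocol in the labels lists the 3, 6 and 24 h times while the sample labels also give 1 h. All groups share 1 cell line, so nothing here compares lines, and the labels do not say whether the 3 libraries of a group came from separate cultures. The p-values below therefore measure the spread between libraries, which may be technical. All 50 genes had enough counts to be tested, among 14460 genes tested in all.

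A dividing cell makes most of its mitotic machinery shortly before it needs it. Transcripts of cyclin B, CDC20, the Polo and Aurora kinases, the kinesins and the kinetochore proteins accumulate through S phase and G2 and decline as cells return to G1, under the DREAM complex, which represses these genes in resting and G1 cells, and B-MYB with FOXM1, which activate them later. Cyclin B with CDK1 drives entry into mitosis, the spindle checkpoint holds cells until every chromosome is attached, and the anaphase-promoting complex with CDC20 then destroys cyclin B and securin. Myeloma is a cancer in which high levels of such proliferation genes mark fast-growing disease.

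Depth was 4347745 to 10695671 counts per library, with a median of 6010529, and 3 counts corresponded to between 0.2805 and 0.69 CPM (counts per 1e+06 counts of a library). CPM values below are scaled by TMM, edgeR's correction of library size for composition. The 10 plasma cell and myeloma markers summed to between 11011 and 14687 CPM in every library, against at most 22.3 CPM for 5 B cell markers, 4.75 for 7 T and NK cell markers, 2.19 for 5 monocyte markers, 70.8 for 6 fibroblast and endothelial markers and 80.5 for 5 epithelial markers. No gene of these lists was at 0 over all libraries together.

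A pair of libraries stood apart from the group their labels give. Replicate 1 of T0 was the highest of its group in 47 of the 50 genes, and replicate 3 of DMSO at 6 h was the lowest of its group in 47 of the 50. Distances were taken over the 14410 tested genes that are not among the 50. The distance to a library's own group leaves out that library, so it rests on fewer libraries than distances to other groups. The root mean square difference of log2(CPM + 1) of the library labelled T0 replicate 1 was 0.286 to the other T0 libraries and 0.210 to the DMSO 6 h libraries. That of the library labelled DMSO 6 h replicate 3 was 0.269 to the other DMSO 6 h libraries, 0.227 to T0 and 0.209 to the DMSO 1 h libraries. Each library treated for 3, 6 or 24 h with GSK-J4 or ZnSO4, and each DMSO 24 h library, was nearest to its own group, while several other T0, 1 h and DMSO 3 h libraries were nearer to another early group. Whether these 2 libraries carry each other's labels was not tested, and every value of T0 and of DMSO at 6 h rests on the labels as given. Replicate 3 of T0 was farther still from its own group, at 0.327, the largest such distance of the 39 libraries, and 0.305 from DMSO 1 h, its nearest group; it was the lowest of T0 in 32 of the 50 genes. All libraries were kept under their labels, and the counts that use T0 or DMSO at 6 h are given with and without T0 replicate 1 and DMSO 6 h replicate 3. Both libraries also entered the estimate of spread that all groups share, and so the p-values of every other comparison. Those other comparisons were not refitted without this pair alone. For them, fits of only the groups compared held neither library, but left out many others too.

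The promoters of 4 genes that lead the 24 h result are shown first, those with the smallest p among the genes that were lower after GSK-J4 and had a promoter in the table used. Genes of this class are known to carry the CHR element, TTTGAA, which binds the DREAM complex, and CCAAT boxes, which bind NF-Y. RefSeq promoters (GRCh38.p14, from 250 bases before to 50 bases after the annotated start, 300 bases in all) were found by symbol for 42 of the 50 genes; AURKA, BUB3, TTK, TPX2, BIRC5, UBE2C, FOXM1 and PBK had none in the table. Each sequence runs 5′ to 3′ along the gene in lower case, and capitals mark TTTGAA and CCAAT on either strand (TTCAAA and ATTGG are their reverse complements). The regions cover the upstream flank and the first transcribed bases of CCNB1 (cyclin B1, chr5:69166900-69167199, plus strand), CDCA8 (borealin of the chromosomal passenger complex, chr1:37692266-37692565, plus strand), CCNA2 (cyclin A2, chr4:121823834-121824133, minus strand) and CDC20 (the coactivator that starts anaphase, chr1:43358731-43359030, plus strand).
CCNB1: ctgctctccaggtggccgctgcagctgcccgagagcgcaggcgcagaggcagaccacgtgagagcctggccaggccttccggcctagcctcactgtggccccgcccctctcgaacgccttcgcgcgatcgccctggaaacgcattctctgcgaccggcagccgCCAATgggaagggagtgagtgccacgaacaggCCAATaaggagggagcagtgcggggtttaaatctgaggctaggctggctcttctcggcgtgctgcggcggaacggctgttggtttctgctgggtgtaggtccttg
CDCA8: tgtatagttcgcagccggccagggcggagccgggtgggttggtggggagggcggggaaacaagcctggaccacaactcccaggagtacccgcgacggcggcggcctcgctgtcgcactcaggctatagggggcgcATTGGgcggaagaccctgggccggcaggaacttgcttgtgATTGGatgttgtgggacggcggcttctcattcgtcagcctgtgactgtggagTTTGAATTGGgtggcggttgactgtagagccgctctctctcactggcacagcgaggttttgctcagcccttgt
CCNA2: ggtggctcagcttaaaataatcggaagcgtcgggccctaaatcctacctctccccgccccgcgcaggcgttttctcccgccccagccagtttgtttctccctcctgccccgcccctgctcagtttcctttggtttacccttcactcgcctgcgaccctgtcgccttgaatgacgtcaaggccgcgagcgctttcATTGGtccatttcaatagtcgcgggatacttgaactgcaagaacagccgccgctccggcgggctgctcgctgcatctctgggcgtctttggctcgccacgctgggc
CDC20: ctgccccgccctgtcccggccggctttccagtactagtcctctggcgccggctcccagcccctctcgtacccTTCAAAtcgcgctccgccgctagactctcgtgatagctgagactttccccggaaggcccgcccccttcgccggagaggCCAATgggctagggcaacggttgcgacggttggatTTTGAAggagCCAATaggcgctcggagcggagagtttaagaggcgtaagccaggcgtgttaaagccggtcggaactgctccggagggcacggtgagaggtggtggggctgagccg

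In CCNB1 the CCAAT boxes began at -87 and -55 from the start, and TTTGAA was not among the letters of this window. CDCA8 held TTTGAA at -23 and reversed CCAAT at -115, -75 and -18, the last of which begins on the final base of the CHR element. The cyclin A2 promoter held 1 reversed CCAAT at -56, and CDC20 held TTTGAA at -65 and, reversed, at -178, with CCAAT at -100 and -55. Across the 52 promoters of the 42 genes, TTTGAA stood in 32 (61.5%), against 15.2% of all 35116 promoters of the same length in the table. CCAAT stood in 76.9% of them against 34.6% of all, and 2 or more CCAAT in 48.1% against 10.8%. The E2F-type words TTCCCGC and TTGGCGC, searched on both strands, stood in 9.62% and 7.69%, against 6.55% and 3.04% of all. Among the genes with a promoter, TTTGAA was present in 13 of the 19 that fell after 24 h of GSK-J4 and in 16 of the 23 that did not, and CCAAT in 17 of 19 and 18 of 23. Only the exact words named here were searched, so a run that differs by a letter, such as cttgaa in the CCNA2 sequence, was not counted. A promoter without a match may therefore still hold a variant of the element. A match is a run of letters, and binding was not measured.

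After 24 h of GSK-J4, 25 of the 50 genes were lower than in DMSO and none was higher (edgeR quasi-likelihood test, Benjamini-Hochberg adjusted p under 0.05). Over all genes tested, 16.8% were called lower and 15.2% higher. The median log2 fold change was -0.24 over the 50 genes and 0.02 over all genes, and 42 of the 50 lay below 0. The changes were mostly small: cyclin B1, the kinesin KIF20A and the kinase PLK1 fell to between 0.41 and 0.52 of the DMSO level, and the other called genes stood higher than that. In all 3 GSK-J4 libraries the level was below all 3 DMSO libraries for 28 of the 50, against 22.4% of all genes, and above them for 2, against 21.8%. In RNA from a whole culture, fewer cells in G2 and mitosis and less RNA per such cell cannot be told apart. With library totals in place of TMM, 19 were called lower and 2, HMMR and KIF2C, higher, while over all genes 22.5% were then higher and 10.6% lower. Calls of CDC25B, INCENP, BUB3, NDC80 and UBE2C were each lost when 1 library of the 2 groups was left out, and the other 20 were kept. CDC25B was lost without DMSO 24 h replicate 3 (-0.21) or GSK-J4 24 h replicate 1 or 2 (both -0.24), INCENP without GSK-J4 replicate 1 (-0.26) or 2 (-0.28) and NDC80 without GSK-J4 replicate 3 (-0.18). BUB3 was lost without DMSO replicate 3 (-0.14) or GSK-J4 replicate 3 (-0.12), and UBE2C without DMSO replicate 3 (-0.22) or GSK-J4 replicate 2 (-0.24) or 3 (-0.34).

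**Figure D1:**
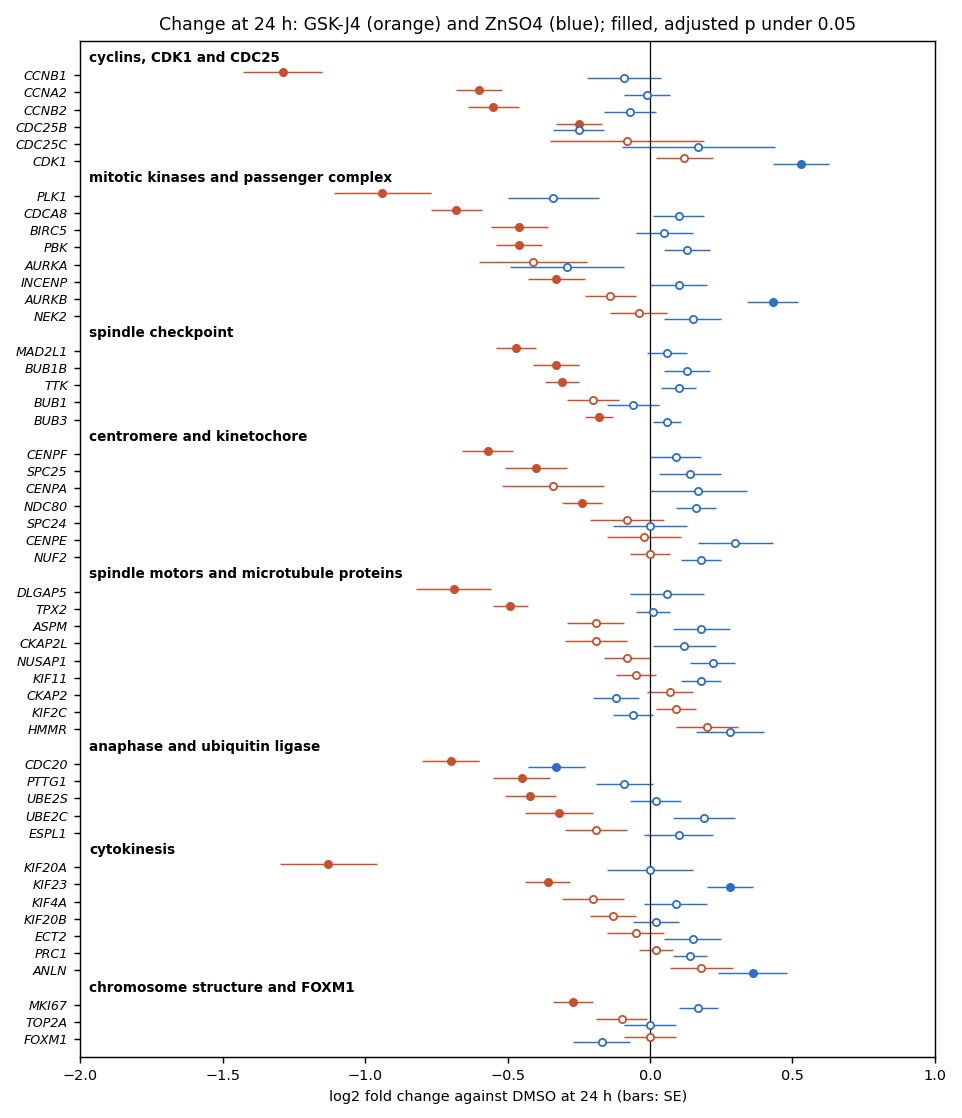
The log2 fold change against DMSO at 24 h (horizontal axis, bars: SE) is drawn for the 50 genes, grouped by role, for GSK-J4 (orange) and ZnSO4 (blue), each from 3 against 3 libraries; filled points have an adjusted p under 0.05. For GSK-J4, 25 points are filled and all lie left of 0, and for ZnSO4, 5 are filled, 4 of them right of 0.

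Among the cyclins and the CDK1 regulators, 4 of 6 genes fell. Cyclin B1 (CCNB1), the partner that brings CDK1 to mitosis, stood at 35.4, 33.7 and 37.2 CPM in the DMSO 24 h libraries and at 14.7, 15.2 and 13.6 CPM after GSK-J4. The 2 groups did not come near each other, and the log2 fold change of -1.29 (SE 0.14, adjusted p = 4.6e-11) was the largest fall among the 50. Cyclin A2 (CCNA2), which works with CDK2 and CDK1 in S phase and G2, was at 129, 136 and 122 CPM in DMSO and 94.7, 82.1 and 78.4 CPM after GSK-J4, a change of -0.60 (SE 0.08, adjusted p = 1.3e-08). Cyclin B2 (CCNB2) was at 102, 98.2 and 99.1 CPM against 71.7, 70.5 and 62 CPM (-0.55, SE 0.09, adjusted p = 2.7e-06), again without overlap. The phosphatase CDC25B, which activates CDK1, was lower by a smaller step (-0.25, SE 0.08, adjusted p = 0.016). The kinase itself, CDK1, was at 66.9, 64.3 and 71 CPM in DMSO and 82.5, 66.2 and 71.2 CPM after GSK-J4, so the groups overlapped, and the 95% interval of its log2 difference ran from -0.07 to 0.32. CDC25C was low, at 2.97 to 7.06 CPM in these 6 libraries, and its interval was wide, from -0.62 to 0.46.

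Of the mitotic kinases and the chromosomal passenger complex, 5 of 8 genes fell. PLK1, the Polo kinase of centrosomes, kinetochores and the midzone, was at 44.4, 45 and 48.4 CPM in DMSO and 27.3, 24.7 and 19.6 CPM after GSK-J4 (log2 fold change -0.94, SE 0.17, adjusted p = 9e-06). Every treated library lay well under every control. CDCA8 was at 72, 79.2 and 77.3 CPM against 48.2, 50.1 and 44.1 CPM (-0.68, SE 0.09, adjusted p = 6e-09), and BIRC5 (survivin), its partner in the complex, at 56.8, 56.3 and 60.1 CPM against 49.3, 38.8 and 38 CPM (-0.46, SE 0.10, adjusted p = 0.00019). The scaffold INCENP (-0.33, adjusted p = 0.01) and the kinase PBK (-0.46, adjusted p = 2.7e-06) also fell. The catalytic member of the complex, AURKB, was not called: it stood at 58.7, 54.8 and 57.9 CPM in DMSO and 53.4, 50.6 and 51.4 CPM after GSK-J4, a difference of -0.14 with an interval from -0.32 to 0.04. AURKA, the spindle pole kinase, was at 12, 12.4 and 9.08 CPM against 8.45, 9.64 and 7.24 CPM, with overlap and an adjusted p of 0.089. NEK2, a centrosome kinase, differed by -0.04, with an interval from -0.24 to 0.17.

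Of the 5 spindle checkpoint genes, 4 fell, to between 0.723 and 0.884 of the DMSO level. MAD2L1, which forms the inhibitory complex that holds CDC20, was at 152, 164 and 158 CPM in DMSO and 125, 115 and 102 CPM after GSK-J4 (-0.47, SE 0.07, adjusted p = 6.7e-07). BUB1B was lower by -0.33 (adjusted p = 0.00069) and the kinase TTK, at 149, 158 and 146 against 130, 120 and 117 CPM, by -0.31 (SE 0.06, adjusted p = 7.4e-05). These 3 genes had all treated libraries below all controls. BUB3, with the smallest called change of the 50 (-0.18, SE 0.05, adjusted p = 0.0052), had overlapping libraries, at 369, 364 and 399 CPM against 368, 329 and 302 CPM. BUB1 was at 79.7, 91.8 and 82.2 CPM against 69.7, 75.5 and 75.2 CPM, a difference of -0.20 that missed the threshold (adjusted p = 0.059).

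Kinetochore genes moved unevenly, with 3 of 7 lower. CENPF, a large coiled-coil protein of the outer kinetochore that peaks in G2, was at 133, 145 and 129 CPM in DMSO and 106, 78.4 and 90 CPM after GSK-J4 (-0.57, SE 0.09, adjusted p = 1.2e-06). Within the NDC80 complex, which grips microtubule ends, the 4 subunits differed: SPC25 (-0.40, adjusted p = 0.0029) and NDC80 (-0.24, adjusted p = 0.0055) were called lower, while SPC24 (-0.08, interval -0.34 to 0.17) and NUF2 (0.00, interval -0.14 to 0.15) were not. Differences between subunits were not tested. The centromeric histone CENPA (-0.34, adjusted p = 0.14) and the kinesin CENPE (-0.02, adjusted p = 0.94) were not called.

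Of the 9 spindle motors and microtubule proteins, 2 fell. TPX2, which activates AURKA and seeds spindle microtubules, was at 203, 208 and 198 CPM in DMSO and 152, 145 and 137 CPM after GSK-J4 (-0.49, SE 0.06, adjusted p = 2.3e-09), and its libraries were far apart. DLGAP5, which stabilises kinetochore fibres, was at 39.9, 34.9 and 30.5 CPM against 16.9, 23.5 and 24.9 CPM (-0.69, SE 0.13, adjusted p = 3.4e-05). The remaining 7 lay between -0.19 and 0.20, among them the spindle motor KIF11 (-0.05, interval -0.19 to 0.10), the microtubule bundler NUSAP1 (-0.08, interval -0.24 to 0.08) and the depolymerase KIF2C (0.09, interval -0.04 to 0.23).

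The genes that act at anaphase were lower in 4 of 5 cases. CDC20 was at 88.4, 82.9 and 87.3 CPM in DMSO and 54.8, 53 and 51.7 CPM after GSK-J4 (-0.70, SE 0.10, adjusted p = 4.9e-08), with tight groups and no overlap. The ubiquitin-conjugating enzymes of the anaphase-promoting complex were both lower, UBE2S by -0.42 (adjusted p = 0.00028) and UBE2C by -0.32 (adjusted p = 0.031), as was securin, PTTG1, at 47.8, 51.8 and 51.8 CPM against 35.8, 36.3 and 38.3 CPM (-0.45, SE 0.10, adjusted p = 0.00028). PTTG1 and UBE2S have near-identical copies elsewhere in the genome, and how the authors' counting treated reads that fit several places is not stated in the labels, so their values are uncertain. Separase, ESPL1, was not called (-0.19, interval -0.42 to 0.04).

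In cytokinesis, 2 of 7 genes fell, and by very unequal amounts. KIF20A (MKLP2), which carries the passenger complex to the spindle midzone, was at 24.7, 23.3 and 22.7 CPM in DMSO and 11.1, 10.6 and 10.6 CPM after GSK-J4 (-1.13, SE 0.17, adjusted p = 1.3e-07). KIF23 (MKLP1), the motor of centralspindlin, was at 141, 141 and 144 CPM against 113, 114 and 104 CPM (-0.36, SE 0.08, adjusted p = 0.00021). The midzone bundler PRC1 (0.02, interval -0.10 to 0.15), ECT2 (-0.05, interval -0.25 to 0.15) and anillin, ANLN (0.18, interval -0.04 to 0.41), were not called. Of the last 3 genes, MKI67 (the Ki-67 protein that coats mitotic chromosomes) was lower, at 348, 356 and 320 CPM against 284, 281 and 284 CPM (-0.27, SE 0.07, adjusted p = 0.0024). TOP2A, the topoisomerase that untangles chromosomes, was at 236, 235 and 215 CPM against 215, 217 and 208 CPM (-0.10, interval -0.28 to 0.07). FOXM1, the transcription factor of this programme, was at 88.4, 94.6 and 87 CPM against 95.4, 89 and 86 CPM, a difference of 0.00 with an interval from -0.18 to 0.18.

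**Figure D2:**
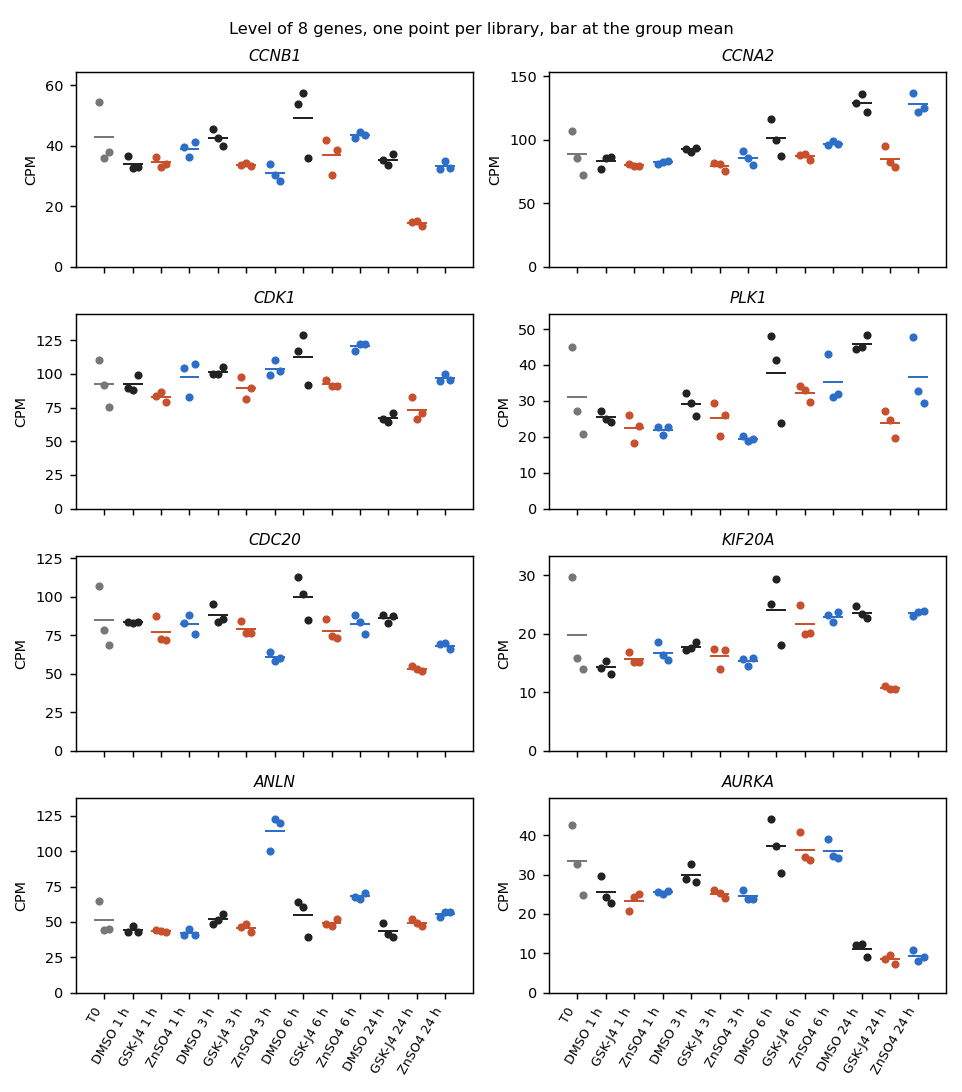
CPM (TMM-scaled, linear axes from 0) is drawn for 8 genes in every library of the 13 groups, with a bar at each group mean; grey, T0; black, DMSO; orange, GSK-J4; blue, ZnSO4. CCNB1 and KIF20A are lowest in the GSK-J4 24 h libraries, ANLN is highest in the ZnSO4 3 h libraries, and AURKA is low in all 9 libraries of 24 h.

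Fewer genes were called at the earlier times. At 1 h of GSK-J4 none of the 50 genes was called by edgeR or DESeq2 and none reached an unadjusted p under 0.05, against 0.104% of all genes called in either direction by edgeR. At 3 h none was called by either tool, against 2.38% of all genes by edgeR, and 8 had an unadjusted p under 0.05. The median change at 3 h was -0.09, and 16 genes had all 3 treated libraries below all 3 controls, against 11.2% of all genes, with none above, against 11.2%. CCNB1, at 45.6, 42.4 and 40 CPM in DMSO and 33.6, 34.4 and 33.2 CPM after GSK-J4, was among them (-0.35, SE 0.11, adjusted p = 0.095), as was MKI67 (-0.23, SE 0.07, adjusted p = 0.085). In a fit of these 2 groups alone, 6 genes were called. The share of all genes called in that fit is not given here, so the count has no background beside it.

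At 6 h of GSK-J4, 5 genes were lower and 2 higher, against 10.5% and 9.83% of all genes, with a median of -0.05. All 3 treated libraries lay below all 3 controls in 2 of the 50 and above them in 7, against 18.1% and 17.4% of all genes, the opposite balance to the calls. With library totals 3 were called lower and 5 higher, against 7.72% and 12.4% of all genes. CCNB1 was at 53.8, 57.5 and 36.1 CPM in DMSO and 41.8, 30.3 and 38.6 CPM after GSK-J4 (-0.41, SE 0.12, adjusted p = 0.0067), and CDC20 at 113, 102 and 85.1 against 85.6, 74.2 and 73.3 CPM (-0.36, SE 0.09, adjusted p = 0.0025). In both the third DMSO library, the one that stands apart, is the low one and falls among or near the treated values. CDK1 (-0.28, adjusted p = 0.02), MKI67 (-0.22, adjusted p = 0.023) and BUB3 (-0.19, adjusted p = 0.0084) were also called lower, and KIF2C (0.25, adjusted p = 0.0041) and CKAP2, a spindle protein (0.25, adjusted p = 0.014), higher. Without T0 replicate 1 and DMSO 6 h replicate 3, 14 genes were lower and 1, KIF2C, higher, against 8.67% and 7.5% of all genes, and the median was -0.14. The 14 are the 5 above with CCNA2, PLK1, TPX2, TOP2A, KIF23, ANLN, UBE2C, AURKB and BUB1B; the largest were CCNB1 (-0.59, SE 0.10, adjusted p = 1.8e-06), CDC20 (-0.47, SE 0.08, adjusted p = 5.6e-06) and PLK1 (-0.47, SE 0.13, adjusted p = 0.008). Leaving out a library with low levels of these genes from the control group widens such differences by construction. With all libraries but 1, DMSO 6 h replicate 3 left out gave 13 genes lower and 1 higher, DMSO replicate 1 or GSK-J4 replicate 2 left out gave 1 lower, DMSO replicate 2 gave 2 lower and 4 higher, and GSK-J4 replicate 3 gave 3 lower. No share of all genes is given here for these fits.

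The change between times was tested as a difference of effects. From 3 to 6 h the effect of GSK-J4 differed for none of the 50 genes by edgeR or DESeq2, with 3 at an unadjusted p under 0.05, against 3.67% of all genes called by edgeR. From 6 to 24 h it moved down for 10 and up for none, against 5.75% of all genes in either direction. Those 10 were KIF20A (-0.99, SE 0.22, adjusted p = 0.002), CCNB1 (-0.88, SE 0.19, adjusted p = 0.0009), CCNB2 (-0.75, SE 0.14, adjusted p = 0.00017), CDCA8, CENPF, TTK, PBK, CCNA2, TPX2 and NDC80, the last 7 between -0.59 and -0.32. All 10 are among the 25 that were lower at 24 h. KIF20A, which was at 25, 29.3 and 18 CPM in DMSO and 24.8, 20 and 20.1 CPM after GSK-J4 at 6 h, overlapped then and was separate at 24 h. Without DMSO 6 h replicate 3, 6 genes moved down and 2 up, and the calls of CCNA2 (-0.29), PBK (-0.31), CENPF (-0.38) and NDC80 (-0.23) were lost; without both libraries that stand apart, 8 moved down and 2, CDK1 (0.53, adjusted p = 0.0011) and ANLN (0.52, adjusted p = 0.0035), moved up, against 3.09% and 2.73% of all genes. The fit without DMSO 6 h replicate 3 alone has no share of all genes given here.

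ZnSO4 was followed by calls in 6 of the 50 genes at 3 h (12%) and in 5 at 24 h (10%). Those shares were near the 10.8% and 9.56% of all genes called with ZnSO4. GSK-J4 called none and 25 of the 50 at these times, against 2.38% and 32% of all genes. The direct comparison of the compounds is given below. The ZnSO4 comparisons use the same DMSO libraries as those of GSK-J4. At 1 h edgeR and DESeq2 called none of the 50, against 0.678% of all genes by edgeR, and 1 gene had an unadjusted p under 0.05. At 3 h, 4 were lower and 2 higher, against 4.16% and 6.59% of all genes. With library totals 7 were lower and 1 higher, against 6.55% and 5.24% of all genes. In a fit of these 2 groups or of the 3 h libraries alone 6 were higher, with no share of all genes given here. The gene that moved most was ANLN, which encodes anillin, the actin-binding scaffold of the contractile ring. It was at 48.7, 51.6 and 55.5 CPM in DMSO, 46.1, 48.5 and 43 CPM after GSK-J4 and 100, 123 and 120 CPM after ZnSO4. All ZnSO4 libraries lay far above all DMSO and GSK-J4 libraries (against DMSO, log2 fold change 1.15, SE 0.10, adjusted p = 1.5e-14). ANLN was then at 67.5, 66.6 and 70.2 CPM at 6 h and 53.5, 56.8 and 56.9 CPM at 24 h of ZnSO4, and its effect shrank between 3 and 6 h by a tested -0.84 (SE 0.15, adjusted p = 9.5e-05), the one such change among the 50, against 2.18% of all genes. Without both libraries that stand apart, ASPM and CENPE also moved down between 3 and 6 h, against 1.57% of all genes, and the ANLN value was -1.03.

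The 4 genes lower after 3 h of ZnSO4 lay in 4 different roles, with 1 gene in each. Those roles were the cyclins and CDK1 regulators, the mitotic kinases and passenger complex, the checkpoint and the anaphase genes. CDC20 was at 95.1, 83.8 and 85.3 CPM in DMSO and 64, 58 and 60.1 CPM after ZnSO4 (-0.54, SE 0.09, adjusted p = 1.4e-05), and CCNB1 at 34.1, 30.2 and 28.4 CPM against the DMSO values given above (-0.48, SE 0.12, adjusted p = 0.0025). PLK1 was at 32.2, 29.3 and 25.8 CPM against 20.3, 18.9 and 19.4 CPM (-0.60, SE 0.18, adjusted p = 0.021), and BUB1 was lower by -0.28 (adjusted p = 0.015). None of these 4 genes had overlapping libraries. ASPM, a spindle pole protein, was higher, at 110, 110 and 116 against 82.2, 97.8 and 89.1 CPM (0.32, SE 0.10, adjusted p = 0.03). The calls of PLK1 and ASPM were lost with DESeq2 and, with that of BUB1, when DMSO 3 h replicate 1 was left out, which left 2 lower and 1 higher. PLK1 was also lost without DMSO replicate 2 (-0.60) or ZnSO4 replicate 2 (-0.57) or 3 (-0.60), and ASPM without DMSO replicate 3 (0.32) or ZnSO4 replicate 2 (0.34) or 3 (0.29).

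At 6 h of ZnSO4, CDC20 was lower (-0.28, adjusted p = 0.04) and PRC1 (0.24, adjusted p = 0.0086) and ANLN (0.32, adjusted p = 0.045) were higher, against 4.51% and 4.81% of all genes. Without the 2 libraries that stand apart, 3 were lower, namely CDC20 (-0.39), CCNB1 (-0.36) and CENPE (-0.39), none was higher, against 3.5% and 3.64% of all genes, and ANLN was at 0.13. Single libraries decided these 3 calls: CDC20 was not called without DMSO 6 h replicate 1 or 2 or ZnSO4 6 h replicate 2 or 3 (-0.29 to -0.18), PRC1 without DMSO replicate 3 (0.16) or ZnSO4 replicate 3 (0.23), and ANLN without DMSO replicate 3 (0.13) or any ZnSO4 replicate (0.29 to 0.33). At 24 h, 1 was lower and 4 higher, against 5.58% and 3.98% of all genes, with a median of 0.10. In a fit of these 2 groups alone 2 were lower and 9 higher, and in a fit of the 24 h libraries alone 2 and 11. The shares of all genes called in those fits are not given here. CDK1 was at 94.6, 100 and 95.4 CPM against 66.9, 64.3 and 71 CPM in DMSO (0.53, SE 0.10, adjusted p = 8.5e-05), and AURKB at 73.3, 78.1 and 79.6 CPM against 58.7, 54.8 and 57.9 CPM (0.43, SE 0.09, adjusted p = 0.0005). Neither gene overlapped, and both calls were kept in every alternative fit. KIF23 (0.28, adjusted p = 0.012) and ANLN (0.36, adjusted p = 0.033) were higher and CDC20 lower (-0.33, adjusted p = 0.019), each with a call that was lost when 1 library was left out. Without ZnSO4 24 h replicate 2, 2 genes were higher and none lower; CDC20 was lost too without ZnSO4 replicate 3 (-0.31) or DMSO replicate 1 or 3 (both -0.32), KIF23 without ZnSO4 replicate 1 (0.25), and ANLN without any one of DMSO replicates 2 and 3 and the 3 ZnSO4 replicates (0.30 to 0.38). Between 6 and 24 h the ZnSO4 effect changed for none of the 50 by edgeR or DESeq2, with 4 at an unadjusted p under 0.05 and 0.408% of all genes called by edgeR; without the 2 libraries that stand apart it rose for CENPE (0.68) and CDK1 (0.56), against 0.189% of all genes.

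**Figure D3:**
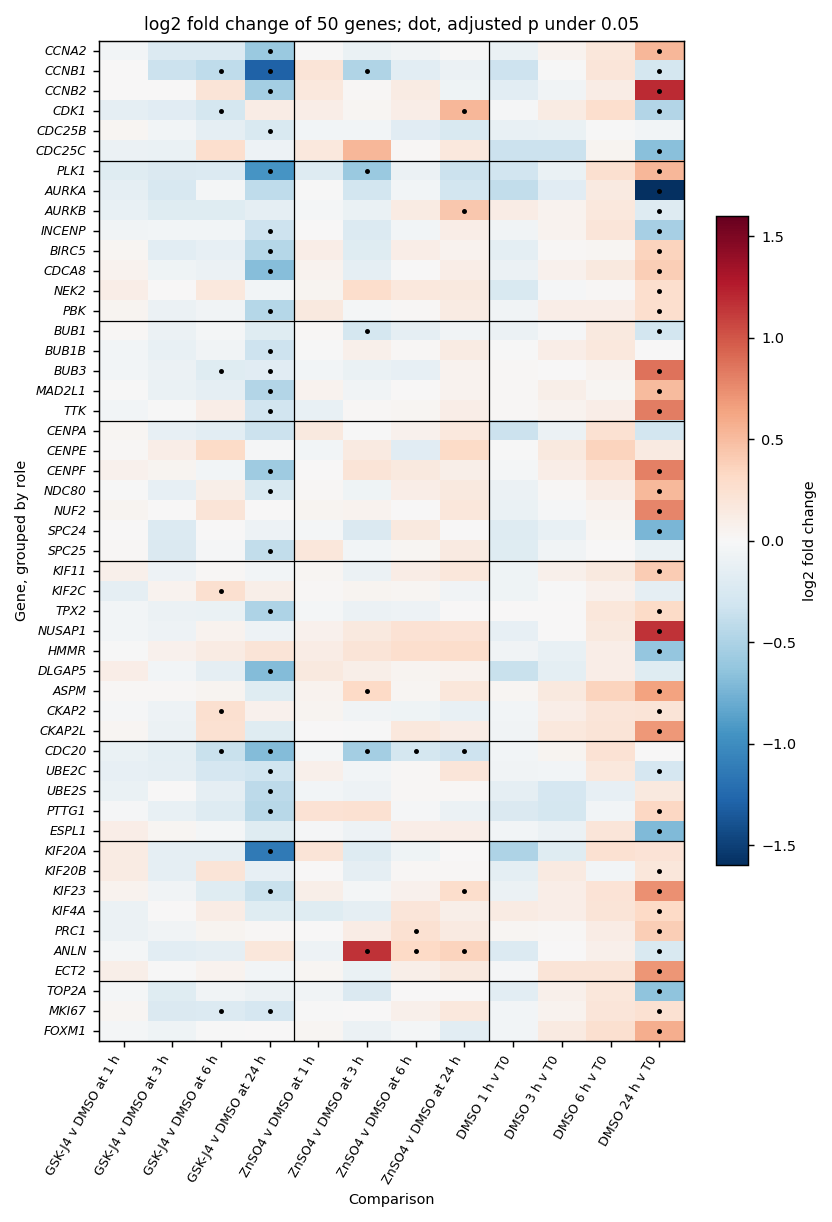
The colour gives the log2 fold change of the 50 genes (rows, grouped by role, lines between roles) in 12 comparisons (columns): GSK-J4 and ZnSO4 against DMSO and DMSO against T0, each at 1, 3, 6 and 24 h. Dots mark an adjusted p under 0.05: 25 in the GSK-J4 24 h column, 5 in the ZnSO4 24 h column and 40 in the column of DMSO 24 h against T0.

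The 2 compounds were also compared directly, by a contrast without the DMSO groups, in the same fit of all 39 libraries. At 1 h none of the 50 genes differed by edgeR or DESeq2, with 3 at an unadjusted p under 0.05 and 0.664% of all genes called by edgeR. At 3 h, 6 were lower with GSK-J4 and 1 higher, against 6.12% and 3.99% of all genes: ANLN (-1.32, SE 0.09, adjusted p = 4.8e-18), CDC25C, NEK2, ASPM, PTTG1 and MKI67 were lower and CDC20 (0.38, adjusted p = 0.002) higher. In a fit of these 2 groups alone 10 were lower and 3 higher, with no share of all genes given here. With library totals 3 were lower and 3 higher, against 4.41% and 8.78% of all genes. Leaving out GSK-J4 3 h replicate 2 left 1 called lower, ZnSO4 3 h replicate 1 or 3 left 2, and GSK-J4 replicate 3 left 3. At 6 h, 7 were lower and 3 higher, against 9.88% and 8.53%. CDK1 was at 95.4, 91.3 and 91.3 CPM with GSK-J4 and 117, 122 and 122 CPM with ZnSO4 (-0.38, SE 0.09, adjusted p = 0.0014), and CENPE was the leading higher gene (0.47, adjusted p = 0.003), at 52.5, 47.4 and 48.5 against 35.3, 31.2 and 39.8 CPM. Leaving out ZnSO4 6 h replicate 1 or GSK-J4 6 h replicate 3 left 4 called lower. For none of these fits with 1 library left out is a share of all genes given here.

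At 24 h, 30 of the 50 genes were lower with GSK-J4 than with ZnSO4 and none was higher, against 12.5% and 12% of all genes, with a median of -0.37. Of the 25 genes that were lower against DMSO, 24 were also lower against ZnSO4, all but CDC25B; the 2 comparisons share the GSK-J4 libraries. All 3 GSK-J4 libraries lay below all 3 ZnSO4 libraries in 37 genes, against 18.7% of all genes. KIF20A was at 23, 23.7 and 23.9 CPM with ZnSO4, CCNB1 at 32.3, 34.8 and 32.6 CPM, CCNA2 at 137, 122 and 125 CPM and TPX2 at 204, 206 and 205 CPM. Against DMSO these 4 genes differed by -0.09 to 0.01 with ZnSO4, and none was called. For PLK1 the ZnSO4 libraries were spread, at 47.8, 32.7 and 29.5 CPM, and the call (-0.61, adjusted p = 0.011) was lost without ZnSO4 24 h replicate 1 (-0.40) or GSK-J4 24 h replicate 3 (-0.49). AURKB (-0.57, adjusted p = 2.2e-06), CDK1 (-0.40, adjusted p = 0.0013) and NUSAP1 (-0.30, adjusted p = 0.0039) differed between the compounds while GSK-J4 against DMSO did not call them. AURKB and CDK1 were called higher with ZnSO4 than with DMSO at 24 h, as given above. NUSAP1 was not called for either compound against DMSO at that time.

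The summed level of the 50 genes adds their CPM in each library, so genes with high levels weigh most, and was not tested. It was 4921, 5002 and 4827 CPM in DMSO at 24 h, 4347, 4125 and 4018 CPM after GSK-J4 and 5313, 5355 and 5104 CPM after ZnSO4. The 3 groups did not overlap, and the GSK-J4 mean was 0.847 of the DMSO mean, or 0.901 as a share of raw library totals, while that of ZnSO4 was 1.069. At 1 h the ratios were 0.989 for GSK-J4 and 1.011 for ZnSO4, at 3 h 0.930 and 0.982, and at 6 h 0.964 and 1.024. The 6 h ratios turn on DMSO replicate 3: without it they were 0.902 for GSK-J4 and 0.958 for ZnSO4, the latter then below DMSO.

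**Figure D4:**
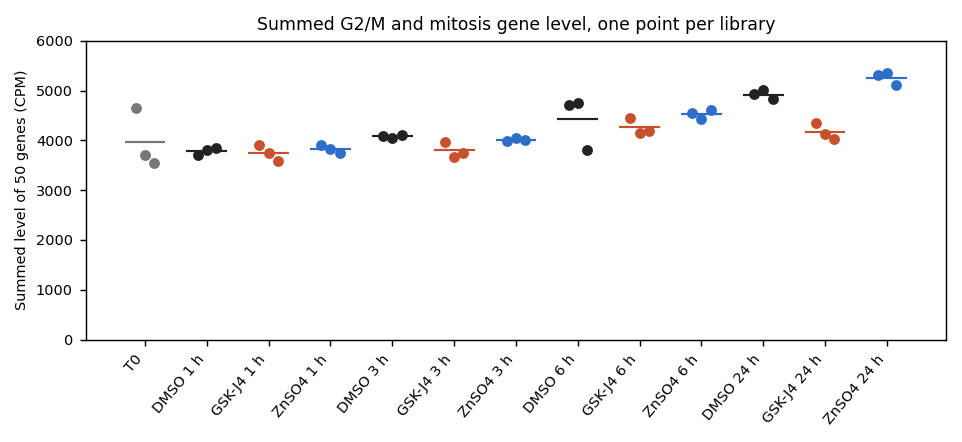
The summed level of the 50 genes in CPM (vertical axis from 0) is drawn for each of the 39 libraries, with a bar at each group mean; grey, T0; black, DMSO; orange, GSK-J4; blue, ZnSO4. The leftmost T0 point at 4656 CPM and the rightmost DMSO 6 h point at 3812 CPM stand apart from their groups, and the GSK-J4 24 h points lie below the other 24 h points.

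Levels in the DMSO control were not constant over time. At 1, 3 and 6 h edgeR and DESeq2 called none of the 50 genes against T0, while 9, 2 and 17 had an unadjusted p under 0.05; over all genes edgeR called 0.0346%, 0.0968% and 0.0138%. Without the 2 libraries that stand apart, 10 genes were higher at 3 h and 35 at 6 h and none lower, against 2.67% and 4.96% of all genes higher. The largest at 6 h were then PLK1 (0.88, SE 0.15), KIF20A (0.85, SE 0.14), CENPE (0.83, SE 0.11) and ASPM (0.79, SE 0.09). Without T0 replicate 1 alone, 25 were called at 6 h and 7 at 3 h, and without DMSO 6 h replicate 3 alone, 11 at 6 h. These 2 libraries have the highest T0 and the lowest DMSO 6 h levels of nearly all 50 genes, so leaving them out raises the difference by construction. For the fits without 1 of them, no share of all genes called is given here, so those counts have no background beside them.

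By 24 h in DMSO, 27 genes were higher than at T0 and 13 lower, against 30.5% and 32.7% of all genes, with a median of 0.23. CCNB2 was at 56.7, 39.2 and 32.7 CPM at T0 and 102, 98.2 and 99.1 CPM at 24 h (1.19, SE 0.10, adjusted p = 3.9e-17), and NUSAP1 at 253, 185 and 148 against 434, 449 and 433 CPM (1.16, SE 0.08, adjusted p = 2.5e-19). BUB3 (0.87), TTK (0.82), CENPF (0.81), NUF2 (0.78) and FOXM1 (0.58) were also higher. AURKA moved the other way and more than any of the 50: 42.7, 32.7 and 24.8 CPM at T0 and 12, 12.4 and 9.08 CPM at 24 h (-1.60, SE 0.14, adjusted p = 1.3e-15), with similarly low levels in the GSK-J4 and ZnSO4 libraries of 24 h. TOP2A was at 425, 316 and 324 CPM against 236, 235 and 215 CPM (-0.64, SE 0.08, adjusted p = 1.1e-09), and SPC24 (-0.73), ESPL1 (-0.71), HMMR (-0.62), INCENP (-0.53) and CDK1 (-0.47) were lower too. With library totals, the median over all genes moved by -0.22, 16 of the 50 were higher and 20 lower, against 19.1% and 45.1% of all genes, and CKAP2 and KIF20B changed sign, so the split depends on the scaling. CCNB2, NUSAP1, BUB3, TTK, CENPF, NUF2, FOXM1, AURKA, TOP2A, SPC24, ESPL1, HMMR, INCENP and CDK1 kept their calls in every fit, that one included. Without T0 replicate 1 and DMSO 6 h replicate 3, 29 were higher and 7 lower, against 29% and 31.5% of all genes, with a median of 0.36; leaving out T0 replicate 1 alone left 7 called lower. Without T0 replicate 3, 26 were higher and 14 lower at 24 h, and none was called at 1, 3 or 6 h. No share of all genes is given here for the fits with 1 library left out. Of the 25 genes that fell with GSK-J4 at 24 h, 15 were higher and 3 lower in DMSO at 24 h than at T0; both comparisons use the DMSO 24 h libraries.

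Other genes of the same pathways were counted at 24 h of GSK-J4, to be read against the 15.2% of all genes called higher and 16.8% called lower. Of 14 tested regulators of CDK1, 3 were higher and 3 lower (21.4% each), near those shares. CDKN1A, the CDK inhibitor p21, was at 9.23, 8.14 and 8.92 CPM in DMSO, 17.6, 26.3 and 21.7 CPM after GSK-J4 and 14, 15.4 and 14.9 CPM after ZnSO4. Both treated groups lay above DMSO, by 1.32 (SE 0.17, adjusted p = 3.3e-09) and 0.76 (SE 0.19, adjusted p = 0.004). GADD45A, a stress-induced inhibitor of CDK1, was higher with GSK-J4 (0.33, adjusted p = 0.00036) and CKS1B too (0.25, adjusted p = 0.0021), while CDC25A (-0.31, adjusted p = 1.7e-06), CKS2 (-0.36, adjusted p = 0.00055) and PKMYT1 were lower. WEE1, the kinase that restrains CDK1, was not called (0.14, adjusted p = 0.14). After 24 h of ZnSO4, 2 of the 14 were higher and none lower, against 3.98% and 5.58% of all genes.

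Among 16 subunits and coactivators of the anaphase-promoting complex, 4 (25%) were higher with GSK-J4, led by CDC27 (0.43, adjusted p = 3.3e-06), and 2 (12.5%) lower, led by ANAPC5 (-0.25, adjusted p = 8.1e-05). The complex partner whose RNA fell most, CDC20, is among the 50. Of 22 cohesin and condensin genes, 1 (4.55%) was higher and 4 (18.2%, near the share of all genes) lower, led by the condensin subunit NCAPD3 (-0.24, adjusted p = 0.0009). Of 19 genes of the MuvB core, B-MYB, the pocket proteins and E2F, 5 (26.3%) were higher and none lower: LIN52 (0.82, adjusted p = 4.1e-06), E2F1 (0.29, adjusted p = 0.0002), RBL2 (0.35, adjusted p = 0.0026), E2F8 (0.37, adjusted p = 0.0034) and LIN54 (0.21, adjusted p = 0.047). LIN52, LIN54 and RBL2 encode parts of the DREAM complex. With ZnSO4 at 24 h, 3 of these 19 genes (15.8%) were also higher and none lower, against 3.98% and 5.58% of all genes. MYBL2, which encodes B-MYB, was at 668, 671 and 672 CPM in DMSO and 634, 615 and 603 CPM after GSK-J4 (-0.12, adjusted p = 0.072).

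Of 36 tested mitotic effectors outside the 50, 10 (27.8%) were lower with GSK-J4 and 4 (11.1%) higher, with a median of -0.10. LMNB1, a nuclear lamin (-0.40, adjusted p = 3.2e-07), and ARHGAP11A (-0.43, adjusted p = 1.4e-06), led the first and the kinetochore protein MIS12 (0.53, adjusted p = 3.3e-08) the second. Of 33 genes of DNA replication and the G1/S transition, 18 (54.5%) were lower and 3 (9.09%) higher, with a median of -0.16, against 50% lower and a median of -0.24 in the 50 genes. FEN1, the flap endonuclease, was at 89.5, 89.5 and 88.7 CPM in DMSO and 68.3, 66.4 and 70.4 CPM after GSK-J4 (-0.38, SE 0.06, adjusted p = 2.7e-06). The replication licensing inhibitor geminin, GMNN (-0.35, adjusted p = 3.3e-06), and the helicase subunit MCM7 (-0.24, adjusted p = 2.8e-05) were lower, and GINS1 (0.66, adjusted p = 8.7e-08) was higher. With ZnSO4 at 24 h, 6 of the 36 effectors (16.7%) and 2 of the 33 replication genes (6.06%) were higher. None of either list was lower. Over all genes ZnSO4 at 24 h gave 3.98% higher and 5.58% lower.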

How the data were processed

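JJN3 RNA was taken up in Trizol and turned into libraries with a NEBNext Ultra kit, per the labels' protocols. The submitters' processing notes name HISAT2 2.1.0 and the build hg19. For the counting tool, annotation, strand setting and read length, nothing is stated in the labels read here (not given in the sources used here). Without the strand setting, it is not known whether reads of a gene were kept apart from those of an overlapping antisense gene. The deposited values are raw counts per gene and library, as whole numbers, and were used unchanged. Symbols matched 51996 of 57773 identifiers. Replicates of a group differed by more than sampling noise (chi-squared per gene 1.205 to 7.323 over 39 pairs), so no library was counted as a copy. Replicate numbers follow deposit order and name a library only.

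Genes were filtered with filterByExpr (minimum count 10), scaled by TMM, and fitted with edgeR 4.0.16 (R 4.3.3; glmQLFit, glmQLFTest) over all 39 libraries with 1 coefficient per group, leaving 26 residual degrees of freedom and a biological coefficient of variation of 4.8%. Benjamini-Hochberg adjustment ran over all 14460 genes, and an adjusted p under 0.05 was called. The SE is the log2 fold change divided by the square root of F. CPM is a gene's counts scaled by TMM library size; log2(CPM + 1) served only for distances between libraries. DESeq2 1.42.0, RLE and library-total scaling, no filter, fits of fewer groups and leaving out each library were alternatives; leaving out 2 libraries together, and each library for the summed level, was added after seeing the data. The analysis code was tested on simulated data.

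The 50 genes, the pathway and marker lists and the tests were chosen with earlier results of these data known. The rule for named genes took 19 set members always, in each comparison up to 8 called members by smallest p and the largest called change per role and direction, and of each pathway list up to 4 called genes by smallest p besides 5 set genes. Other members are named to account for the whole list.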

Additional observations from a re-analysis of the deposited data

Results flagged for a closer look

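The effect of GSK-J4 against DMSO differed between 24 and 6 h in 10 genes, by the test of the difference itself (edgeR quasi-likelihood, adjusted p under 0.05). The difference was -0.99 for KIF20A, -0.88 for CCNB1, -0.75 for CCNB2, -0.59 for CDCA8, -0.52 for CENPF, -0.41 for TTK, -0.40 for PBK, -0.39 for CCNA2, -0.38 for TPX2 and -0.32 for NDC80, on the log2 scale. All 6 treated libraries against their controls enter each value, and the DMSO 6 h group holds the library that stands apart. The part of that library in the differences is given by the fit without it, in which CCNA2, PBK, CENPF and NDC80 were not called. The effect of ZnSO4 on ANLN differed between 6 and 3 h by -0.84, with levels of 100, 123 and 120 CPM at 3 h and 67.5, 66.6 and 70.2 CPM at 6 h. Groups of 3 libraries are too small for a test of single outlying libraries, so none was made.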

How the results depend on the processing

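All 20 comparisons kept the sign of every called value of the 50 genes, 144 in all, except CKAP2 (-0.01) and KIF20B (-0.05) in DMSO 24 h against T0 with library totals. Of these 144 calls, 140 were kept with RLE, 136 without the filter, 134 with DESeq2, 136 in fits of the groups compared and 114 with library totals. The 25 lower genes of GSK-J4 at 24 h became 19 to 27 over the alternatives, within 1.5 times. No paired analysis was possible because the labels carry no replicate numbers.

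Counts that moved by over 1.5 times were as follows. With library totals, GSK-J4 at 6 h gave 3 lower and 5 higher, GSK-J4 at 24 h 2 higher, ZnSO4 at 3 h 7 lower and 1 higher, ZnSO4 at 6 h 0 lower, GSK-J4 against ZnSO4 at 3 h 3 lower and 3 higher and at 24 h 2 higher, DMSO 24 h against T0 20 lower and 16 higher, the GSK-J4 effect from 3 to 6 h 1 and from 6 to 24 h 1 higher. Without the filter, GSK-J4 at 6 h gave 1 higher, ZnSO4 at 6 h 1 higher, ZnSO4 at 24 h 2 lower, GSK-J4 against ZnSO4 at 3 h 2 higher, DMSO 6 h against T0 1 and the ZnSO4 effect from 6 to 24 h 1. RLE and DESeq2 gave 1 higher for ZnSO4 at 6 h, and DESeq2 1 higher for ZnSO4 at 3 h. In fits of the groups compared, GSK-J4 at 3 h gave 6, GSK-J4 at 6 h 4 higher, ZnSO4 at 3 h 6 higher, ZnSO4 at 24 h 9 higher and 2 lower, GSK-J4 against ZnSO4 at 3 h 10 lower and 3 higher and at 24 h 1 higher, and the GSK-J4 effect 2 from 3 to 6 h and 1 higher from 6 to 24 h. In fits of 1 time point, GSK-J4 at 3 h gave 5, ZnSO4 at 3 h 6 higher, at 6 h 4 higher and at 24 h 11 higher and 2 lower, and GSK-J4 against ZnSO4 at 3 h 11 lower and 3 higher and at 24 h 2 higher. The cause of these shifts was not tested. Shares of all genes called are not given here for the fits of fewer groups or those with 1 library left out.

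Leaving out each library in turn gave these ranges of counts. GSK-J4 at 6 h, 1 to 13 lower and 1 to 4 higher; ZnSO4 at 3 h, 2 to 4 lower and 1 to 2 higher; ZnSO4 at 6 h, 0 to 3 lower and 0 to 3 higher; ZnSO4 at 24 h, 0 to 2 lower and 2 to 4 higher. GSK-J4 against ZnSO4 gave 1 to 5 lower at 3 h and 4 to 7 at 6 h. Against T0, DMSO gave 0 to 1 at 1 h, 0 to 7 at 3 h, 0 to 25 at 6 h and 7 to 14 lower at 24 h. The GSK-J4 effect changed for 0 to 2 genes from 3 to 6 h and, from 6 to 24 h, for 6 to 13 lower and 0 to 2 higher; that of ZnSO4 from 6 to 24 h for 0 to 2. The summed level at 6 h over that of DMSO ran from 0.958 to 1.063 for ZnSO4 and from 0.902 to 1.000 for GSK-J4, an alternative added after seeing the data. With T0 replicate 1 and DMSO 6 h replicate 3 both left out, GSK-J4 at 6 h gave 14 lower and 1 higher, ZnSO4 at 6 h 3 lower and 0 higher, DMSO against T0 10 at 3 h, 35 at 6 h and 7 lower at 24 h, the GSK-J4 effect from 6 to 24 h 2 higher, and the ZnSO4 effect 3 lower from 3 to 6 h and 2 from 6 to 24 h. As a share of raw library totals the summed level was 0.901 of DMSO for GSK-J4 at 24 h and 0.956 for ZnSO4 at 3 h, and CCAAT stood in 61.5% of the 52 promoters when the window began 100 bases before the start, against 21.3% of all promoters. In that window TTTGAA stood in 53.8% against 6.84%, TTCCCGC in 3.85% against 3.45% and TTGGCGC in 3.85% against 1.64%. Depth limits the low genes most: the SE of CDC25C at 24 h was 0.27.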
